A study of Mus musculus with 30 samples.

Results

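The 7 genes described here, A4galt, Gtpbp1, Muc13, Nipsnap2, Pcp4l1, Tnp1 and Uqcc2, were chosen by their expression difference between casein-fed and soy-fed mouse hearts, which was large in both HCM and wild-type animals. All probe sets that the platform annotation assigns to these symbols were taken, 11 of the 12488 on the array and 7 of 8251 genes with a symbol of their own, and each is shown apart. Because the casein-minus-soy difference selected the genes, its values are given as a description without a test. Left ventricles of C57BL/6 mice aged 2 months were profiled on 30 Affymetrix MG_U74Av2 arrays, and RNA of 2 animals was pooled for each array. The casein-fed groups were female HCM, male HCM, female wild type and male wild type, with 4 arrays each. The soy-fed groups were female HCM and male HCM with 3 arrays each, and female wild type and male wild type with 4 each. The labels name no mutation and do not spell out HCM, in cardiac genetics the usual abbreviation of hypertrophic cardiomyopathy. The wild types share the strain, age and diets of the HCM mice. Soy-based chow is known to carry isoflavones, plant compounds that bind oestrogen receptors, but the labels give no isoflavone content. The number of arrays limits the precision of all values, and p-values measure the spread between pooled samples.

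The 7 genes are not one pathway. Uqcc2 encodes an assembly factor of respiratory complex III, and Nipsnap2 a mitochondrial protein that, in human cells, recruits autophagy proteins to damaged mitochondria. A4galt is the glycosyltransferase that makes globotriaosylceramide, the membrane glycolipid that Shiga toxin binds. Gtpbp1 is a GTPase related to translation elongation factors and linked to mRNA turnover. Muc13 is a transmembrane mucin of epithelia, best known from the gut. Pcp4l1 is a small peptide related to Pcp4, a calmodulin regulator, and is known from the brain. Tnp1 is a transition protein that takes the place of histones in elongating spermatids, so the heart is not a tissue in which it is known to act.

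Added control RNAs also differed between arrays. The bacterial poly-A control Dap, averaged over its probe sets, read 7.18 to 8.07 log2 units on the 8 casein HCM arrays and 4.03 to 4.70 on the 22 other arrays. The hybridization controls divided casein wild type by replicate number: BioD minus BioC was 2.17 to 2.44 on replicates 1 and 2 of both sexes, against 0.50 to 0.63 on replicates 3 and 4. Every difference of diet or genotype is therefore also a difference between array sets, and the contributions of these cannot be told apart. One library, replicate 2 of male soy wild type, stood apart with a median correlation of 0.949 with the other arrays, where the next lowest was 0.975. Results that turn on that array are given with and without it. Markers of ventricular cardiomyocytes averaged 11.57 to 11.78 on casein arrays and 11.08 to 11.59 on soy arrays, high on the array's scale throughout. Atrial markers averaged 6.68 to 8.76 on casein and 6.88 to 8.15 on soy, and Myl7 among them ran from 6.40 to 10.90. The part of atrial tissue in the values was not tested. In bulk tissue, fewer cells of a type and less RNA per cell cannot be told apart.

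Nipsnap2 and Tnp1 had the most similar profiles over the 8 groups of all lead probe sets, as described further on, so the upstream regions of this pair are printed. The lead probe set of a gene is the one with its largest diet difference. The sequences are the 250 bases before the annotated start in RefSeq (build GRCm38.p6), on the gene's strand, and capitals mark GGGCGG on either strand.
Nipsnap2, chr5:129724825-129725074, plus strand: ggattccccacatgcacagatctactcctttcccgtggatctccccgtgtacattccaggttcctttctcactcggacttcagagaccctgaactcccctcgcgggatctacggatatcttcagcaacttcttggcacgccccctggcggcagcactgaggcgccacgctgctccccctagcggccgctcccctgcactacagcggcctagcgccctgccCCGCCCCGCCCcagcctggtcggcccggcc
Tnp1, chr1:73015900-73016149, minus strand: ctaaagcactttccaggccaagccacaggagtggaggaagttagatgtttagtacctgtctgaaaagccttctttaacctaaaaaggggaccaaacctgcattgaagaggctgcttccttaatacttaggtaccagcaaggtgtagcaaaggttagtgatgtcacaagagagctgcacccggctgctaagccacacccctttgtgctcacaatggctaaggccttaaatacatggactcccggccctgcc
The regions were searched on both strands for AGGTCA, a nuclear receptor element, CACGTG, the E-box, GGGCGG, the GC box, TATAAA, the TATA box, and TGACGTCA, the cAMP response element. The Nipsnap2 region held 2 overlapping matches of GGGCGG and had 65.6% G and C, while none of the 5 motifs was found in the Tnp1 region, with 49.2% G and C. GGGCGG was also found 3 times upstream of A4galt and of Gtpbp1 and once upstream of Uqcc2, and it occurs in 32.7% of the 32851 upstream regions of the same length. AGGTCA was found upstream of both annotated Muc13 starts and occurs in 14% of those regions. The pair with the closest profiles thus had no searched motif in common, and a match is only a description of the letters.

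The mitochondrial genes were higher on casein. Uqcc2 (95707_at) read 10.10, 10.21, 10.21 and 9.96 in casein HCM females and 10.01, 10.24, 10.22 and 10.19 in casein HCM males, all as log2 expression, with 9.22, 9.36, 9.39 and 9.60 in casein wild-type females and 9.50, 9.64, 9.48 and 9.82 in casein wild-type males. Its soy values were 8.47, 8.63 and 8.64 in HCM females, 8.37, 8.64 and 8.72 in HCM males, 8.88, 8.82, 8.74 and 8.61 in wild-type females, and 8.90, 8.53, 8.88 and 8.84 in wild-type males. The casein HCM arrays formed the top step, the casein wild-type arrays a middle step, and every soy array lay below both. Casein minus soy was 1.56 ± 0.08 in HCM and 0.73 ± 0.07 in wild type (log2 difference ± SE). Nipsnap2 (102402_at) read 11.02, 11.12, 11.02 and 10.70 in casein HCM females, 11.37, 11.54, 11.43 and 11.31 in casein HCM males, 10.54, 10.83, 11.18 and 11.39 in casein wild-type females, and 10.42, 11.09, 11.44 and 11.27 in casein wild-type males. On the soy diet the values were 9.78, 10.30 and 10.27 in HCM females, 9.97, 10.29 and 10.32 in HCM males, 10.01, 9.78, 9.65 and 9.41 in wild-type females, and 9.41, 8.85, 10.06 and 9.93 in wild-type males. The diets did not overlap, but the gap was narrow, with 10.42 the lowest casein value and 10.32 the highest on soy. The diet difference was 1.03 ± 0.16 in HCM and 1.38 ± 0.15 in wild type.

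A4galt and Tnp1 were also higher on casein, with the larger difference in wild type. A4galt (161085_r_at) read 8.87, 8.81, 8.94 and 8.74 in casein HCM females, 9.24, 9.44, 9.30 and 9.07 in casein HCM males, 9.70, 9.57, 9.09 and 9.17 in casein wild-type females, and 9.63, 9.31, 9.37 and 9.28 in casein wild-type males. Soy-fed animals gave 8.29, 8.65 and 8.46 in HCM females, 8.36, 8.37 and 8.67 in HCM males, 7.79, 7.55, 7.48 and 7.75 in wild-type females, and 7.82, 5.91, 7.38 and 7.58 in wild-type males. Soy wild type was lowest, soy HCM lay between it and the casein arrays, and 5.91 is the library that stood apart. Casein minus soy was 0.58 ± 0.18 in HCM and 1.98 ± 0.16 in wild type, so A4galt ranked 166 of 12422 probe sets by the smaller of both differences. Tnp1 (160533_r_at) read 9.02, 9.05, 9.11 and 8.92 in casein HCM females, 9.48, 9.46, 9.32 and 9.13 in casein HCM males, 9.28, 9.22, 8.59 and 8.75 in casein wild-type females, and 9.25, 9.07, 9.07 and 9.10 in casein wild-type males. On soy it read 8.10, 8.36 and 8.06 in HCM females, 8.18, 8.07 and 8.25 in HCM males, 7.78, 7.78, 7.54 and 7.65 in wild-type females, and 7.96, 7.32, 7.47 and 7.55 in wild-type males. The diets did not overlap for Tnp1, and the difference was 1.02 ± 0.10 in HCM and 1.41 ± 0.09 in wild type.

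Pcp4l1 was higher on casein and the difference was larger in HCM. Its probe set 160264_s_at read 9.76, 10.03, 10.27 and 9.99 in casein HCM females, 10.02, 10.07, 10.29 and 10.22 in casein HCM males, 8.73, 9.41, 9.37 and 9.52 in casein wild-type females, and 9.15, 9.23, 9.43 and 9.38 in casein wild-type males. Its soy-fed values were 8.29, 8.62 and 8.75 in HCM females, 8.50, 8.44 and 8.44 in HCM males, 8.58, 8.21, 8.45 and 8.31 in wild-type females, and 8.36, 7.86, 8.57 and 8.26 in wild-type males. A single casein wild-type female at 8.73 fell below the highest soy value of 8.75, so the diets overlapped by that array. Casein minus soy was 1.58 ± 0.11 in HCM and 0.95 ± 0.10 in wild type.

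Gtpbp1 and Muc13 were lower on casein, in both cases by more in HCM. Gtpbp1 (161683_r_at) read 7.22, 7.15, 6.95 and 6.94 in casein HCM females, 6.74, 6.31, 6.40 and 6.49 in casein HCM males, 8.04, 7.71, 7.76 and 7.77 in casein wild-type females, and 7.58, 7.51, 7.70 and 7.44 in casein wild-type males. The soy arrays gave 8.71, 8.50 and 8.58 in HCM females, 8.83, 8.61 and 8.50 in HCM males, 8.30, 8.35, 8.47 and 8.36 in wild-type females, and 8.31, 8.24, 8.42 and 8.51 in wild-type males. All casein arrays lay below all soy arrays, and casein HCM males were the lowest group. Casein minus soy was -1.85 ± 0.07 in HCM and -0.68 ± 0.07 in wild type. Muc13 (162041_f_at) read 6.61, 6.35, 6.51 and 6.58 in casein HCM females, 6.23, 6.23, 5.95 and 6.03 in casein HCM males, 7.30, 7.14, 6.92 and 6.82 in casein wild-type females, and 7.15, 6.95, 6.97 and 6.73 in casein wild-type males. With soy the readings were 7.80, 7.70 and 7.73 in HCM females, 7.96, 7.70 and 7.65 in HCM males, 7.81, 7.78, 7.97 and 8.07 in wild-type females, and 7.71, 7.16, 7.89 and 7.81 in wild-type males. The soy value of 7.16, again the library that stood apart, lay below the highest casein value of 7.30, and the other soy arrays lay above all casein arrays. Casein minus soy was -1.45 ± 0.10 in HCM and -0.78 ± 0.09 in wild type.

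**Figure D1:**
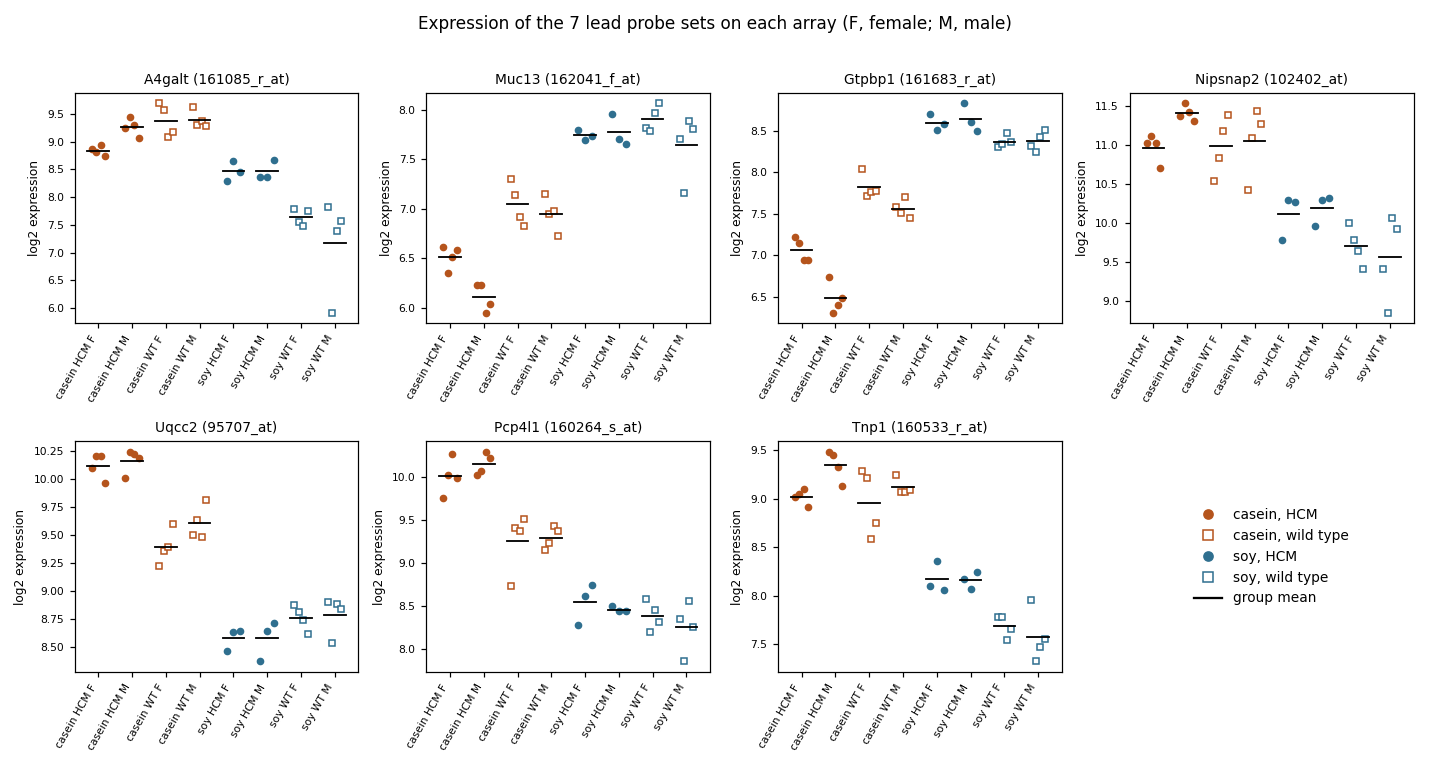
Log2 expression (vertical axis, scaled per panel) of the lead probe set of each of the 7 genes, by group of diet, genotype and sex, with 1 point per array and a bar at the group mean. A4galt, Nipsnap2, Uqcc2, Pcp4l1 and Tnp1 are higher on casein, Muc13 and Gtpbp1 are lower, and the low A4galt point at 5.91 is male soy wild-type replicate 2.

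In all 4 strata of sex and genotype the 7 lead probe sets had the direction of their mean diet difference. The choice, made on the diet difference in both genotypes, favoured this. In the order female HCM, male HCM, female wild type and male wild type, casein minus soy was 0.37, 0.80, 1.74 and 2.22 for A4galt (161085_r_at) and -1.53, -2.16, -0.55 and -0.81 for Gtpbp1 (161683_r_at). The smallest stratum value of the 7 lead probe sets was therefore that of A4galt in HCM females (0.37 ± 0.25). Averaged over the 4 strata, A4galt had the largest absolute diet difference of the 7 genes (1.28 ± 0.12), and it ranked 15 of 12422 non-control probe sets. This order rested on male soy wild-type replicate 2: without it A4galt was at 1.18, smaller in size than Gtpbp1 161683_r_at (-1.27), Pcp4l1 160264_s_at (1.23) and Tnp1 160533_r_at (1.19). Pcp4l1 ranked 16, Gtpbp1 17, Tnp1 20, Nipsnap2 21, Uqcc2 26 and Muc13 33. Among the 14 probe sets above A4galt were Scd1, a fatty acid desaturase (1.49), Sod1, the cytosolic superoxide dismutase (1.43), the kinesin Kif5b (-1.38), the potassium channels Kcnj9 (1.36) and Kcnq1 (-1.34), Slc23a3 (1.34), Use1 (1.33), Polr1c (-1.29) and Map11 (-1.28). The other 5 have no symbol or several. Each value is that of a single probe set. A further probe set of the same gene was at 0.30 for Scd1, -0.05 for Kcnj9, -0.06 for Kcnq1 and -0.31 for Slc23a3. For Use1 it was at 0.98, for Polr1c at 0.19 and for Map11 at -0.55. Casein and soy arrays did not overlap for A4galt, Nipsnap2, Tnp1 and Uqcc2 with casein above, as for 2.1% of all probe sets, and for Gtpbp1 with casein below, as for 1.67%. In the fit to all probe sets, 29% were called higher and 33.3% lower on casein (limma, adjusted p below 0.05), and nothing is read from these shares about genes chosen on the same contrast.

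Of the genes, 4 have a second probe set, and in these the diet difference was much smaller in size than in the first. Muc13 98000_at averaged 5.96 on casein and 6.02 on soy, with a range of 5.67 to 6.47 on casein and 5.76 to 6.97 on soy. Tnp1 161216_at ranged from 4.64 to 5.08 on casein and from 4.76 to 5.36 on soy, low on the array's scale in every group. Pcp4l1 97297_at ranged from 8.18 to 9.33 on casein and from 8.35 to 8.98 on soy. Gtpbp1 103436_at ranged from 6.90 to 7.26 on casein and from 7.03 to 7.44 on soy. All of these overlapped between diets. The mean diet differences of the second probe sets were -0.06 ± 0.08 for Muc13, -0.08 ± 0.05 for Tnp1, 0.13 ± 0.09 for Pcp4l1 and -0.12 ± 0.03 for Gtpbp1. They ranked 9918, 9031, 7274 and 7671 of 12422, while the first probe sets of the same genes ranked within the highest 33. Levels are not compared between probe sets, since each has its own binding properties.

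**Figure D2:**
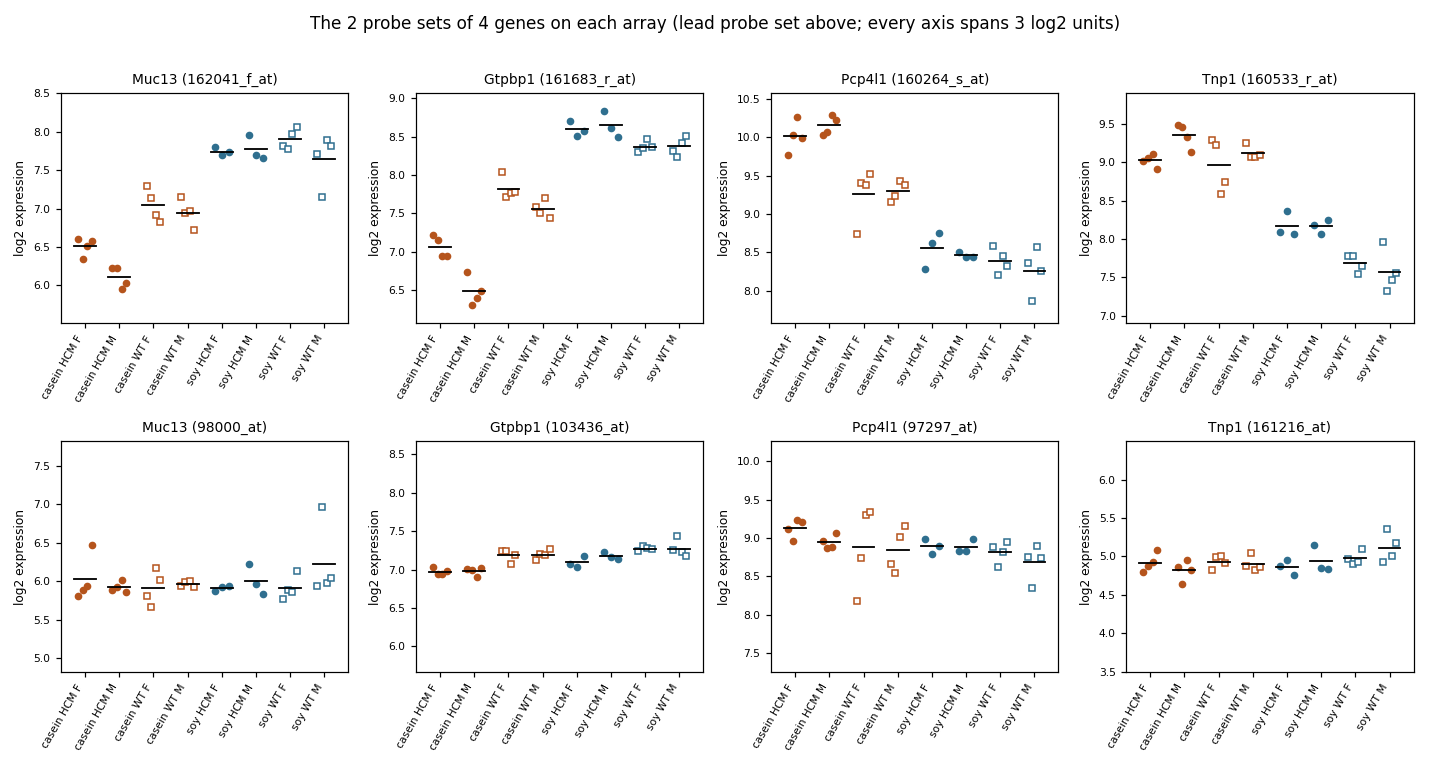
Log2 expression of both probe sets of Muc13, Gtpbp1, Pcp4l1 and Tnp1 on each array, with the lead probe set above, the other below, and axes that span the same number of log2 units. The lead probe sets of Gtpbp1 and Tnp1 separate the diets, and those of Pcp4l1 and Muc13 do so except for a narrow overlap. Casein and soy arrays overlap in the 4 lower panels.

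The letter in an Affymetrix probe set name records how its probes were chosen: _r_at marks sets built with some selection rules dropped, _f_at sets matching a gene family, and _s_at sets shared between transcripts. Of the 7 lead probe sets, 3 end in _r_at (A4galt, Gtpbp1, Tnp1), 1 in _f_at (Muc13), 1 in _s_at (Pcp4l1), and 2 carry no letter (Nipsnap2, Uqcc2). All 4 second probe sets carry no letter. Over the whole array, _r_at sets were 7.25% of the probe sets tested but 50 of the 100 with the largest absolute diet difference. Sets with no letter were 77.4% of all and 28 of those 100. An absolute diet difference of at least 1 was reached by 3.88% of _r_at sets, 0.744% of _f_at sets, 0.809% of _s_at sets and 0.187% of sets with no letter. For diet the medians of the absolute log2 value were 0.24 for _r_at sets and 0.16 for sets with no letter. For the mean HCM difference these medians were close, at 0.08 and 0.09. Shares of large HCM differences by class are not given here, so the extremes are not compared between diet and HCM. Among 38 genes with several probe sets whose largest diet difference was at least 1, a second probe set reached at least 0.5 of it with the same sign in 3, and in 15 it lay within 0.2 of 0. The part of probe selection in the members' values was not tested.

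**Figure D3:**
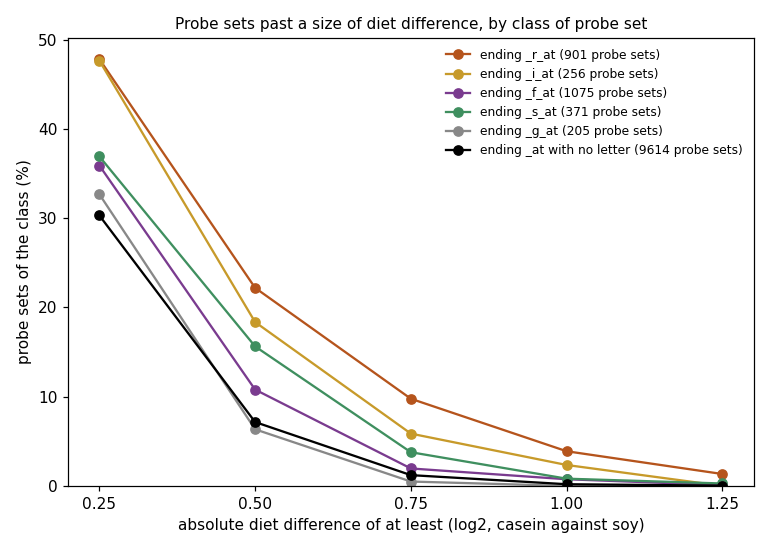
Share of the probe sets in each naming class (vertical axis, %) whose absolute mean diet difference reaches the log2 size on the horizontal axis. At a size of 1 the share was 3.88% for _r_at sets and 0.187% for sets with no letter.

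HCM was compared with wild type, a contrast the choice of genes did not use directly. It is built from the same group means as the diet differences. Averaged over diets and sexes, 5 of the 11 member probe sets were higher in HCM and 3 were lower, where 17.2% of all probe sets were called higher and 15.6% lower (limma, adjusted p below 0.05). The median absolute log2 difference was 0.33 over the members and 0.09 over all probe sets tested. Pcp4l1 160264_s_at rose by 0.49 ± 0.08 (adjusted p = 1.52e-05, limma), A4galt by 0.36 ± 0.12 (adjusted p = 0.0222), Nipsnap2 by 0.34 ± 0.11 (adjusted p = 0.0198), Tnp1 160533_r_at by 0.34 ± 0.07 (adjusted p = 0.000272) and Uqcc2 by 0.22 ± 0.05 (adjusted p = 0.00143). Muc13 162041_f_at fell by 0.35 ± 0.07 (adjusted p = 0.000161, limma), and both Gtpbp1 probe sets fell, 161683_r_at by 0.33 ± 0.05 (adjusted p = 1.11e-05) and 103436_at by 0.18 ± 0.03 (adjusted p = 0.000109). Gtpbp1 161683_r_at and Uqcc2 had the opposite sign on soy alone, at 0.25 and -0.20. A4galt had the opposite sign on casein alone, at -0.34, which did not pass, against 1.06 on soy. The remaining probe sets of Pcp4l1, Muc13 and Tnp1 did not pass, at 0.15 ± 0.09, -0.04 ± 0.08 and -0.10 ± 0.05, though Tnp1 161216_at passed without male soy HCM replicate 1 (adjusted p = 0.0469, limma). With array set as a random block, Nipsnap2, A4galt and Uqcc2 lost their calls (adjusted p = 0.191, 0.227 and 0.0659, limma). The array sets were casein HCM, soy HCM, soy wild type, and casein wild type divided into replicates 1 and 2 and replicates 3 and 4. Outside casein wild type each set is a whole group of diet and genotype. This fit therefore cannot separate array set from diet or genotype. Without casein wild-type replicates 1 and 2 the Nipsnap2 call was lost (adjusted p = 0.163, limma), and without replicates 3 and 4 that of A4galt (adjusted p = 0.124), while Pcp4l1 97297_at then passed at 0.32 (adjusted p = 0.000546).

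The HCM difference was also read within each diet. On casein and on soy it shares group means with the diet differences by genotype that the choice used. The p-values within a diet are therefore not free of the selection. On casein, Pcp4l1 160264_s_at averaged 10.08 ± 0.18 in HCM and 9.28 ± 0.25 in wild type (SD, n = 8 each), a rise of 0.80 ± 0.10 (adjusted p = 2.91e-07, limma). Uqcc2 rose by 0.64 ± 0.07 (adjusted p = 2.09e-08, limma), with 10.14 ± 0.11 in HCM and 9.50 ± 0.18 in wild type (SD). These were the 2 member probe sets higher in HCM on casein, where 25% of all were higher. Gtpbp1 161683_r_at fell by 0.91 ± 0.07 (adjusted p = 2.69e-11, limma), with 6.78 ± 0.35 in HCM and 7.69 ± 0.18 in wild type (SD), and Muc13 162041_f_at fell by 0.69 ± 0.09 (adjusted p = 3.74e-07). Gtpbp1 103436_at also fell, by 0.21 ± 0.04 (adjusted p = 0.000168, limma), which made 3 lower members against 24% of all probe sets. The casein HCM arrays are those with the raised poly-A controls, and the part of this in the differences was not tested. Without casein wild-type replicates 1 and 2, Tnp1 160533_r_at also passed on casein, at 0.31 (adjusted p = 0.00796, limma). Without replicates 3 and 4, Nipsnap2 passed at 0.47 (adjusted p = 0.029, limma) and Pcp4l1 97297_at at 0.51 (adjusted p = 0.000162).

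On soy, 4 member probe sets were higher in HCM and 1 was lower, where 12.3% of all probe sets were higher and 12.3% lower. A4galt rose by 1.06 ± 0.18 (adjusted p = 0.000113, limma), with 8.47 ± 0.16 in HCM (SD, n = 6) and 7.41 ± 0.62 in wild type (SD, n = 8). Without male soy wild-type replicate 2 the rise was 0.85 (adjusted p = 3.86e-07, limma). Tnp1 160533_r_at rose by 0.54 ± 0.10 (adjusted p = 0.000287, limma), Nipsnap2 by 0.52 ± 0.16 (adjusted p = 0.0232) and Gtpbp1 161683_r_at by 0.25 ± 0.07 (adjusted p = 0.0136). Gtpbp1 103436_at fell by 0.14 ± 0.05 (adjusted p = 0.0298, limma), so the gene's probe sets differed in direction on soy. Nipsnap2 lost its call without female soy HCM replicate 2 or 3, male soy HCM replicate 2 or 3, or female soy wild-type replicate 4 (adjusted p = 0.0514 to 0.0612, limma). Gtpbp1 103436_at lost its call without female soy HCM replicate 1 or 2, male soy HCM replicate 2 or 3, or male soy wild-type replicate 2 (adjusted p = 0.0605 to 0.0763). Uqcc2 was at -0.20 ± 0.08 and did not pass (adjusted p = 0.0557, limma), but passed at -0.24 without male soy wild-type replicate 2 (adjusted p = 0.0147). It also passed without replicate 4 of male or female casein wild type, male soy HCM replicate 3 or female soy wild-type replicate 4 (adjusted p = 0.0431 to 0.0479, limma). The casein arrays do not enter the soy difference itself, only the spread shared by all groups and the p-value adjustment. Muc13 162041_f_at was at -0.02 ± 0.10 and Pcp4l1 160264_s_at at 0.18 ± 0.11, neither past the threshold. With array set as a random block, 2 of these 5 calls remained, those of A4galt and Tnp1.

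A4galt on casein did not pass at -0.34 ± 0.16 (adjusted p = 0.0866, limma), and passed without male soy wild-type replicate 2 (adjusted p = 0.00147). That soy array does not enter the casein difference itself, only the spread shared by all groups and the p-value adjustment. The values for the difference between diets of the HCM effect equal those of casein minus soy in HCM less that in wild type, which the selection touches and which were not tested. They were -1.40 ± 0.24 for A4galt, -1.16 ± 0.10 for Gtpbp1 161683_r_at, -0.67 ± 0.13 for Muc13 162041_f_at, 0.84 ± 0.10 for Uqcc2, 0.62 ± 0.15 for Pcp4l1 160264_s_at, -0.39 ± 0.13 for Tnp1 160533_r_at and -0.35 ± 0.22 for Nipsnap2.

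**Figure D4:**
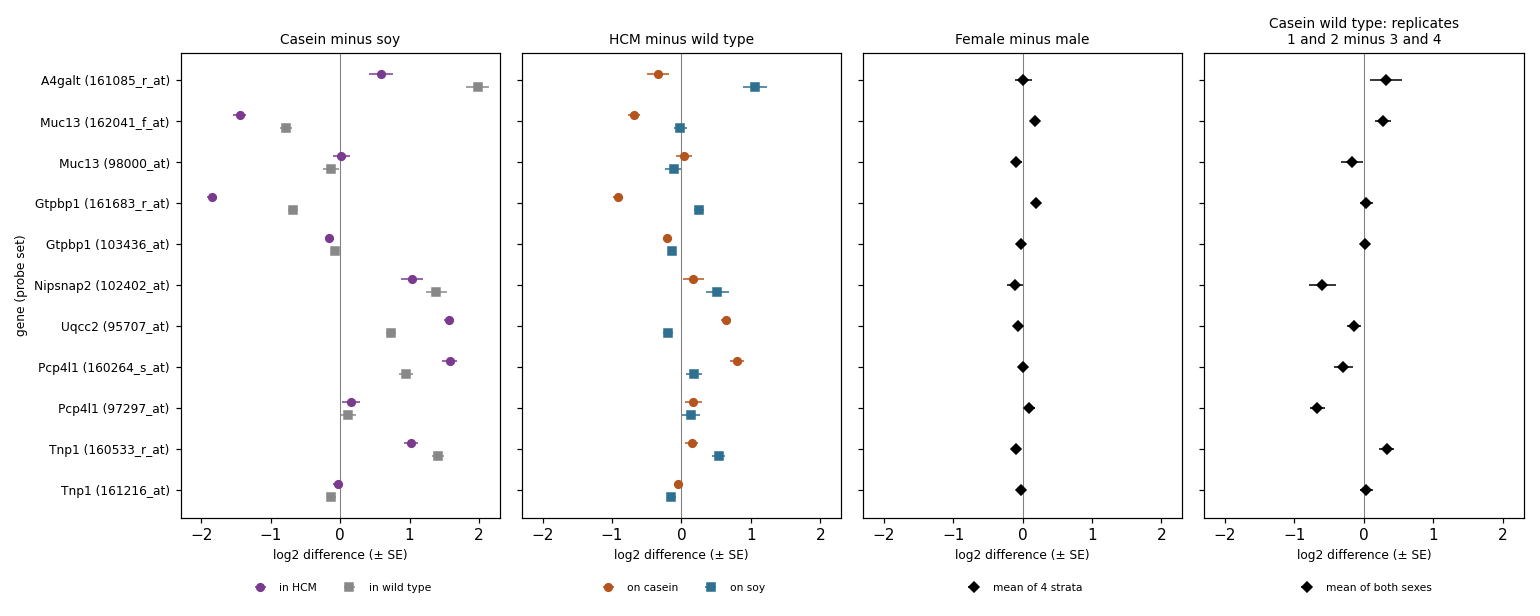
Log2 differences (horizontal axis, ± SE) of the 11 member probe sets for casein minus soy by genotype, HCM minus wild type by diet, female minus male, and casein wild-type replicates 1 and 2 minus 3 and 4. The left panel holds the contrast used to choose the genes; the female-minus-male values all lie within 0.20 of 0.

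Neither sex nor its interactions gave a call among the members. Female minus male had 0 of 11 member probe sets past the threshold, where 0.233% of all (29 probe sets) passed in limma; at an unadjusted p under 0.05 there were 2 members and 1126 of all probe sets. Those were Gtpbp1 161683_r_at at 0.20 ± 0.05 (adjusted p = 0.119, limma) and Muc13 162041_f_at at 0.18 ± 0.07 (adjusted p = 0.396). Gtpbp1 161683_r_at passed without male casein HCM replicate 1 (adjusted p = 0.0366, limma) and with array weights (adjusted p = 0.0284). The diet difference in females minus that in males passed for 0 members and 0% of all; at an unadjusted p under 0.05 there were 2 members, Tnp1 160533_r_at and Gtpbp1 161683_r_at, and 1754 of all. It was 0.45 ± 0.10 for Gtpbp1 161683_r_at (adjusted p = 0.189, limma), whose casein HCM females were above casein HCM males with no overlap, and it passed with array weights (adjusted p = 0.0289). The HCM difference in females minus that in males passed for 0 members and 0% of all, with 0 members and 503 of all at an unadjusted p under 0.05 (lowest member adjusted p = 0.933, limma).

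The casein wild-type arrays allowed a comparison within one diet and genotype, between replicates 1 and 2 and replicates 3 and 4. Of the 11 members 1 was higher and 2 were lower in replicates 1 and 2, where 8.76% of all probe sets were higher and 4.77% lower. Pcp4l1 97297_at, the probe set with little diet difference, differed by -0.67 ± 0.11 (adjusted p = 0.000164, limma), averaging 8.53 on replicates 1 and 2 and 9.20 on replicates 3 and 4. Nipsnap2 differed by -0.60 ± 0.19 (adjusted p = 0.0375, limma) and Tnp1 160533_r_at by 0.33 ± 0.10 (adjusted p = 0.035). The Tnp1 call was lost without any single casein wild-type array other than male replicate 2 (adjusted p = 0.0574 to 0.11, limma), and that of Nipsnap2 without any other than replicate 2 of either sex (adjusted p = 0.0514 to 0.172). Without male soy wild-type replicate 2, A4galt and Muc13 162041_f_at also passed (adjusted p = 0.0217 and 0.0232, limma), and Pcp4l1 160264_s_at passed without female casein wild-type replicate 2 (adjusted p = 0.0309). The soy array is in neither compared set and enters only the spread shared by all groups and the p-value adjustment. For each of the 7 lead probe sets, both sets of casein wild-type arrays averaged on the same side of soy wild type. The choice used the wild-type diet difference and so favoured this result, which is no test of the array sets. Pcp4l1 97297_at had little diet difference to begin with. It averaged 8.53 and 9.20 in the 2 sets, on either side of 8.75 in soy wild type. Nipsnap2 averaged 10.72 and 11.32 in the 2 sets and 9.64 in soy wild type, and Tnp1 160533_r_at 9.20 and 8.88 against 7.63. Gtpbp1 161683_r_at averaged 7.71 and 7.67 against 8.37, and Uqcc2 9.43 and 9.57 against 8.77, so these probe sets barely moved between the sets.

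The closest profiles were sought over the 8 group means, each centred on its own mean, as the smallest root mean square distance in log2 units. Nipsnap2 and Tnp1 160533_r_at were each other's nearest, at 0.0458, although they moved in opposite directions between the 2 casein wild-type sets. Their next nearest was Ppox, a haem synthesis enzyme, at 0.0958 for Nipsnap2 and 0.0961 for Tnp1. Nearest to Uqcc2 were Use1 99188_at (0.0932), a factor of vesicle fusion, and Coq7 (0.106), an enzyme of coenzyme Q synthesis. Nearest to Muc13 were the mitochondrial protease Htra2 (0.0783) and the anchoring protein Akap8 (0.0834). Gtpbp1 lay closest to Kcnq1 (0.107) and Rpp30 (0.142), Pcp4l1 to Thoc7 (0.121) and Sod1 (0.125), and A4galt to Slc23a3 (0.136) and Gpcpd1 (0.160). These are descriptions over 8 points that share arrays and diet groups. Each neighbour is a single probe set. Those of Kcnq1, Slc23a3, Gpcpd1, Htra2 and Ppox end in _r_at, and those of Rpp30 and Akap8 in _f_at. The diet difference of another probe set had the opposite sign for Gpcpd1 (-0.77), Rpp30 (0.57), Htra2 (0.24) and Slc23a3 (-0.31). It had the same sign for Kcnq1 (-0.06), Akap8 (-0.36), Ppox (0.11) and Use1 (1.33).

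Lists around each member, with the members themselves left out, showed how their relatives moved with diet. Complex III subunits and assembly factors, around Uqcc2, held 12 probe sets, of which 11 were higher and 1 lower on casein, with a median of 0.34 against -0.01 over all probe sets. Over all probe sets 29% were called higher and 33.3% lower on casein, the shares against which this and the following counts are to be read. Uqcrh rose by 0.78 ± 0.04 (adjusted p = 7.92e-15, limma) and Uqcr11 by 0.63 ± 0.06 (adjusted p = 2.4e-09), whereas the probe sets of Cyc1, cytochrome c1, disagreed: 162469_r_at fell by 0.63 ± 0.05 (adjusted p = 5.52e-11) and 95072_at rose by 0.31 ± 0.04 (adjusted p = 3.2e-07). Mitochondrial quality genes, around Nipsnap2, had 13 of 17 probe sets higher and 1 lower, with a median of 0.26. Park7 rose by 0.65 ± 0.07 (adjusted p = 1.44e-08, limma) and Map1lc3b, the autophagosome protein, by 0.64 ± 0.06 on 160287_at (adjusted p = 4.93e-10) and 0.31 ± 0.06 on 160288_at (adjusted p = 0.000113), and Bnip3, a mitophagy receptor, fell by 0.81 ± 0.10 (adjusted p = 1.28e-07). Cardiomyocyte markers moved with these lists: 8 of 11 probe sets were higher on casein and 1 was lower, with a median of 0.30. The part of cardiomyocyte RNA in the mitochondrial values was not tested.

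The lists around the other members had calls in both directions. Globoside genes, around A4galt, had 6 of 20 probe sets higher and 4 lower on casein, with a median of 0.02. Hexa, a lysosomal hexosaminidase, was at 0.42 ± 0.07 on 94840_at (adjusted p = 4.9e-06, limma) and 0.01 ± 0.09 on 162488_at. Psap, the saposin precursor, was at -0.65 ± 0.11 on 97560_at and -0.34 ± 0.05 on 161476_at (adjusted p = 6.93e-06 and 6.92e-07, limma), and at -0.09 ± 0.05 on 97114_at. Ugcg, the glucosylceramide synthase, was at -0.41 ± 0.10 on 96623_at (adjusted p = 0.000823, limma) and 0.02 ± 0.06 on 94197_at. Translational GTPases and partners, around Gtpbp1, had 7 of 19 higher and 8 lower, with a median of -0.10, among them Eef2 at 0.46 ± 0.05 (adjusted p = 7.51e-09, limma), Exosc10 at 0.49 ± 0.06 (adjusted p = 3.14e-08) and Pelo, whose probe sets disagreed, at -1.03 ± 0.08 on 161280_r_at (adjusted p = 1.05e-11) and 0.28 ± 0.05 on 98017_at (adjusted p = 7.54e-06). Mucins had 3 of 10 higher and 3 lower, with a median of 0.02, and the probe sets of Emcn, the endothelial sialomucin, disagreed: 93885_g_at was at 0.34 ± 0.04 and 93884_at at -0.14 ± 0.04 (adjusted p = 8.88e-08 and 0.00443, limma), and 94997_at at 0.08 ± 0.06 did not pass. Calmodulin-binding genes, around Pcp4l1, had 1 of 11 higher and 5 lower, with a median of -0.08. Spermatid genes, around Tnp1, had 8 of 23 higher and 8 lower, with a median of 0.03, among them Spa17 at 0.48 ± 0.05 (adjusted p = 3.22e-09, limma). Odf2, of the sperm tail, was at 0.99 ± 0.07 on 161262_r_at (adjusted p = 2.04e-12, limma) but at 0.05 ± 0.04 and 0.05 ± 0.05 on 100626_at and 160970_at, neither past the threshold. The sperm glycolytic enzyme Gapdhs was at -0.69 ± 0.05 on 102946_r_at and 0.30 ± 0.07 on 160950_at (adjusted p = 5.2e-13 and 0.00063, limma), in opposite directions.

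Markers of tissues in which members are best known were also read. Most testis markers are in the spermatid list as well, and Pcp4 is in both the calmodulin-binding and the Purkinje cell list. The lists are therefore not separate readings. Testis markers had 3 of 12 probe sets higher and 7 lower on casein, and their mean ran from 4.89 to 5.32 on casein arrays and from 4.98 to 5.50 on soy arrays. The 3 higher ones, in the direction of Tnp1 160533_r_at, were Ldhc at 0.20 ± 0.04 (adjusted p = 0.000314, limma) and the 2 probe sets of the protamine Prm2, at 0.13 ± 0.05 and 0.20 ± 0.07 (adjusted p = 0.0334 and 0.0138). Among the lower ones was the protamine Prm1, at -0.22 ± 0.04 (adjusted p = 2.61e-05, limma). Epithelial markers had 6 of 15 higher and 3 lower, with means of 5.28 to 5.50 on casein and 5.19 to 5.71 on soy, while Muc13 162041_f_at was lower. Purkinje cell markers had 0 of 7 higher and 3 lower, with means of 5.76 to 6.08 on casein and 6.04 to 6.33 on soy, whereas Pcp4l1 160264_s_at was higher. Pcp2 was at -0.91 ± 0.07 on 162452_at and -0.18 ± 0.04 on 102376_r_at (adjusted p = 1.16e-11 and 0.000656, limma). Pvalb was at -0.62 ± 0.04 on 96719_i_at (adjusted p = 2.15e-12, limma), which ranged from 9.22 to 10.52. Its other probe set, 96720_f_at, ranged from 3.66 to 4.04 and did not pass at -0.09 ± 0.04 (adjusted p = 0.0534, limma). No detection calls were made here, so the marker levels are not read as expression or its absence. Of the remaining lists, endothelial markers had 7 of 11 higher and 3 lower, macrophage markers 7 of 15 higher and 6 lower, fibroblast markers 1 of 14 higher and 3 lower, adipocyte markers 2 of 7 higher and 3 lower, red blood cell markers 1 of 5 higher and 2 lower, and atrial markers 1 of 5 higher. Their part in the members' values was not tested.

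The lists were also counted between HCM and wild type, where 17.2% of all probe sets were higher in HCM and 15.6% lower. In HCM, complex III had 5 of 12 probe sets higher and 3 lower, mitochondrial quality genes 6 of 17 higher and 1 lower, and cardiomyocyte markers 7 of 11 higher and 0 lower. Spermatid genes had 2 of 23 higher and 5 lower, globoside genes 3 of 20 higher and 4 lower, translational GTPases 5 of 19 higher and 1 lower, mucins 2 of 10 higher and 1 lower, and calmodulin-binding genes 1 of 11 higher and 2 lower. Fibroblast markers had 6 of 14 higher and 1 lower, endothelial markers 4 of 11 and 2, and epithelial markers 2 of 15 and 2. Macrophage markers had 1 of 15 higher and 3 lower, testis markers 1 of 12 and 3, and atrial markers 1 of 5 and 0. Purkinje cell markers had 0 of 7 higher and 2 lower, and red blood cell markers 0 of 5 and 1. Adipocyte markers had 0 of 7 higher and 0 lower.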

How the data were processed

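Per the submitters' processing notes, the authors used RMA and Affymetrix Expression Console, and they deposited 1 log2 value for each probe set and array. For versions and settings, the sources used here give nothing. RMA commonly corrects background and quantile-normalizes the arrays. Detection calls were not used here. Array medians were 6.108 to 6.224, and correlations between arrays 0.9297 to 0.9973, so no array was a copy of another.

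The platform table supplied gene names: of 12422 non-control probe sets, 10833 had 1 symbol, 396 several and 1193 none. All 11 member probe sets matched RefSeq by gene number. One fit with limma 3.58.1 in R 4.3.3 held a coefficient for each of the 8 groups over all 30 arrays, and eBayes moderated its tests (5.86 prior and 22 residual degrees of freedom). These were two-sided, with Benjamini-Hochberg adjustment over 12422 probe sets and a threshold of 0.05. The casein wild-type sets were compared in a further fit with that group divided by replicate number. The script was tested on simulated data.

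Members and lists were chosen with earlier results of these data known, and so was the division of casein wild type. Named genes were the members, the 2 nearest profiles of each lead probe set, up to 3 list genes with the largest called diet difference, and probe sets ranked above the first member. Alternatives were 1 probe set per gene, a filter on the dimmest 40%, quantile normalization, median centring, replicate block, array weights, intensity trend, array set as a random block (statmod 1.5.0, consensus correlation 0.179), and leaving out array sets or single arrays.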

Additional observations from a re-analysis of the deposited data

Results flagged for a closer look

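In groups of 4 arrays, 4 of 66 combinations of member probe set and group held an array far from the others by Dixon's criterion at 95%; chance marks about 1 in 20. Gtpbp1 103436_at read 6.90 on male casein HCM replicate 3, with the others averaging 7.01. Tnp1 160533_r_at read 9.25 on male casein wild-type replicate 1, with the others at 9.07 to 9.10. Uqcc2 95707_at read 8.53 on male soy wild-type replicate 2, with the others at 8.84 to 8.90. Muc13 98000_at read 6.97 on the same array, with the others at 5.93 to 6.04. That array is the library with the lowest median correlation with the rest (0.949).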

How the results depend on the processing

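With 1 probe set per gene, the mean absolute diet difference over the members moved to 1.21 on 7 probe sets, against 0.81 on all 11, and the mean absolute difference of diet effects between genotypes to 0.78, against 0.53; fewer probe sets enter by construction. With array set as a random block, the HCM comparison called 5 members in place of 8, and HCM on soy 2 in place of 5. Without the casein HCM arrays, HCM called 3, HCM on soy 3 and the comparison of casein wild-type sets 1. In that setting the HCM difference equals the one on soy, so it reversed to 0.25 for Gtpbp1 161683_r_at (adjusted p = 0.0137, limma) and -0.20 for Uqcc2 (adjusted p = 0.0833). Array weights gave 1 call for sex and 1 for diet by sex, both Gtpbp1 161683_r_at. Leaving out single arrays gave 8 to 9 calls for HCM, 5 to 6 on casein, 3 to 6 on soy, 1 to 5 between the casein wild-type sets, 0 to 1 for sex, 0 to 0 for both interactions with sex, and 0.78 to 0.82 and 0.49 to 0.55 for the mean absolute diet and diet-by-genotype values. Nipsnap2 and Tnp1 160533_r_at lost their calls between the casein wild-type sets when single arrays of that group were left out. Replicate numbers did not pair the arrays: deviations of same-numbered arrays correlated at -0.55 to 0.60, and 9 of 30 arrays correlated best with their own number. With the replicate block the member counts were 8 for HCM, 5 on soy and 5 on casein, as without it, and calls over all probe sets for HCM were 3847 against 4076. The comparison of casein wild-type sets was not run with the replicate block or array set block, since replicate numbers define it. The cause of the other changes was not tested.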
